A study of Mus musculus and Homo sapiens with 22 samples.

Results

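HEK293 cells kept for 96 h with tau aggregates were compared with mock-transfected cells, gene by gene, through the introns and splice junctions of each gene. HEK293 is a line derived from human embryonic kidney. Every gene with a row in either of the authors' 2 deposited tables for these cells was taken, which gave 21945 genes. The intron table held 172099 introns of 19761 genes, and the splicing table held 308694 junctions of 13524 genes, 11340 of them also in the intron table. The comparison uses 6 of the 22 samples of the series, with 3 libraries in each group.

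All 6 libraries came from 1 biosensor line of the genotype HEK293 Tau-RD-P301S-CFP/YFP, so the mock cells also made the repeat domain (RD) of tau with the P301S mutation fused to the fluorescent proteins CFP and YFP. The aggregate group was transfected with 200 ug of clarified brain homogenate from P301S mice per dish, with lipofectamine 2000, and held for 96 h. The mock group is labelled as mock transfected, while the shared protocol also speaks of WT homogenate. An effect of aggregates and an effect of the homogenate therefore cannot be told apart. Each replicate was 1 dish, RNA was taken up in Trizol LS, and libraries were primed with random hexamers. The sequencing depth of these libraries was not given in the sources used here. All values at 96 h are the authors' summaries over 3 libraries a group, so no spread over samples is printed beside them.

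Tau is a microtubule-binding protein that forms aggregates in neurodegenerative disease, and in a biosensor line added aggregates seed aggregation of the tagged repeat domain. Most introns are removed while a gene is being transcribed. Some, called retained or detained introns, stay in polyadenylated RNA that is held in the nucleus, often near nuclear speckles, which are bodies rich in splicing factors and built on the proteins SON and SRRM2. The title of the series names speckle components that move in cells with tau aggregates.

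The intron table gives for each intron a mean normalized read count, a log2 change, its standard error (SE) and an adjusted p. Its header does not say which group is over which, so the direction was read against the splicing table, whose columns name the groups. PSI (percent spliced in, written here from 0 to 1) is the share of 1 junction or retained intron within a set that shares 1 exon end. It is not a share of all transcripts of the gene. Of 84 introns whose retained PSI was at least 0.1 higher with aggregates, 71 had a positive log2 change, and of 48 at least 0.1 lower, 36 had a negative one. Positive values are therefore read as higher with aggregates. Intron counts are not divided by the amount of mRNA, so more transcription and less splicing cannot be told apart in that table. The strand used for counting was not given in the sources used here, so reads of an overlapping or antisense gene, or of a small RNA inside an intron, count towards the intron.

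Introns rose far more often than they fell. Of 82091 introns with an adjusted p in the authors' deposited table, 1231 (1.5%) were higher with aggregates at an adjusted p below 0.05 and 120 (0.146%) were lower. They lay in 645 genes with at least 1 higher intron (4.97% of 12966 genes with a tested intron) and 86 genes with at least 1 lower intron (0.663%), and no gene had both. The median change of the called introns was 0.90 on the log2 scale for those higher (0.45 to 3.37) and -0.63 for those lower (-1.26 to -0.46). The median over all tested introns was 0.00 on the same scale. A change of at least 1 on the log2 scale was seen in 475 of the higher introns and 7 of the lower ones.

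The introns of a gene moved together. Of 528 genes with a higher intron and at least 3 tested introns, 425 had a positive change in each tested intron, against 1741 of all 8538 genes with that many introns (20.4%). At least 1 in 2 tested introns was called in 108 of the 528. A single higher intron was found in 380 genes, at least 2 in 265 genes and at least 5 in 35 genes. Introns of a gene share its transcription and its libraries, so these counts describe the genes and test nothing.

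The 10 genes with the most higher introns held between 9 and 13 of them. EEF2, the elongation factor that moves the ribosome along mRNA, led with 13 of 14 tested introns higher and a median change of 1.20. Its introns ranged from 0.82 to 1.86, and the 1 intron not called, of 91 bases, stood at 0.82 (SE 0.25, adjusted p 0.0636 in the authors' deposited table). DTL, a substrate receptor of a ubiquitin ligase that acts in S phase, had 13 of 17 higher (median 1.12). NOP58, a core protein of the particles that methylate ribosomal RNA, had 12 of 19 higher (median 0.81), and CDC25A, a phosphatase that drives the cell cycle, 12 of 16 (median 0.94).

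BRD2, a reader of acetylated histones, had 11 of 14 introns higher with a median of 1.10. Its 2 first introns by position stood at 0.18 (SE 0.24) and 0.55 (SE 0.31) and did not pass, while the 12 that follow lay between 0.86 and 1.40. RSRC2, an arginine- and serine-rich protein, had 10 of 11 higher (median 1.03, range 0.71 to 1.26). Further genes with many higher introns were HNRNPM (9 of 15), the chromatin protein KMT2E (9 of 16) and the ribosome-rescue factor HBS1L (9 of 15).

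The largest gene medians were in genes with few tested introns. ANKRD1, a transcriptional cofactor and target of YAP signalling, had all 3 tested introns higher, at 1.99 (SE 0.32), 3.21 (SE 0.40) and 3.37 (SE 0.46), on low mean counts of 35.5 to 72.1. ATF3, a transcription factor of the integrated stress response, had all 4 higher. Its longest intron, of 43144 bases, stood at 0.73 (SE 0.18), and the other 3 at 2.01 (SE 0.17), 2.09 (SE 0.19) and 1.97 (SE 0.18). The intron of ATF3 with the smallest adjusted p (9.45e-26 in the authors' deposited table) lay on chromosome 1 from 212608931 to 212613435 (GRCh38).

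Others with large medians were FGF18, a fibroblast growth factor (1.49, 3 of 3 introns higher), DUSP8, a phosphatase of MAP kinases (1.43, 3 of 3), FOSL2, an AP-1 subunit (1.33, 2 of 3), and BBC3, the p53 target PUMA (1.26, 3 of 3). OVGP1, an oviduct glycoprotein gene, had 7 of 9 introns higher with a median of 1.47. ALYREF, an adaptor that links mRNA to its export receptor, stood at 1.30 with 3 of 4 higher. Several of these genes were low in the 24 h total RNA libraries of the same line. The means were 0.404 FPKM for ANKRD1, 0.583 for FGF18 and 1.15 for FOSL2. The cells of those libraries had also received 200 ug of homogenate, so these are not levels of untreated cells.

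**Figure D1:**
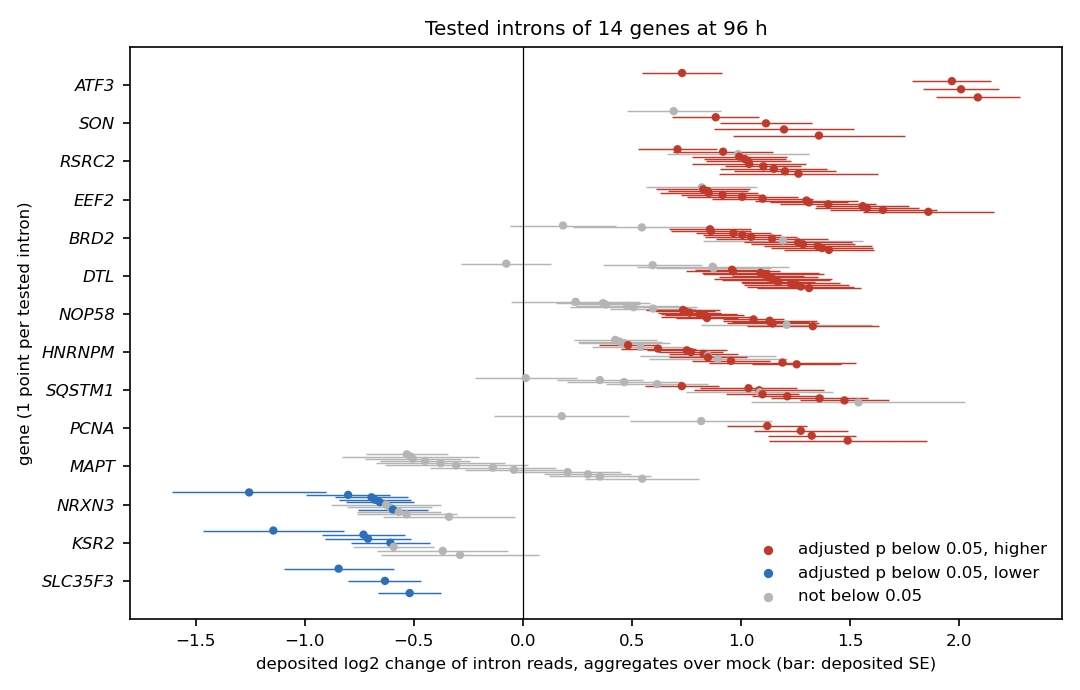
Each point is the deposited log2 change of 1 tested intron (aggregates over mock) with its deposited standard error, for 14 genes. The introns of EEF2 and RSRC2 all lie above 0, those of NRXN3, KSR2 and SLC35F3 all lie below 0, and the 12 tested introns of MAPT lie on both sides of 0 with none called.

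Genes with a lower intron were long, with a median of 252100 bases of tested intron over the 86 genes, against 24112 over all tested genes. NRXN3, a presynaptic adhesion gene, led with 6 of 11 tested introns lower, and all 11 lay below 0, from -1.26 (SE 0.35) to -0.34 (SE 0.30). KSR2, a scaffold of the RAF and MEK kinases, had 4 of 7 lower (median -0.61). SLC35F3, a transporter gene, had all 3 lower at -0.52 (SE 0.15), -0.63 (SE 0.17) and -0.85 (SE 0.25), in introns of 29964 to 185378 bases.

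COX10-AS1 (4 of 12), KIF26B (3 of 11), OSBPL10 (3 of 14) and ATXN7L1 (3 of 14) followed. Of 78 genes with a lower intron and at least 3 tested introns, 59 had each tested intron below 0, and in 4 at least 1 in 2 was called. COX10-AS1 is an antisense gene, so its reads and those of its partner cannot be told apart here.

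Intron length moved with the change. With tested introns split by length into 10 groups of equal size, in the shortest group (20 to 714 bases) the median change was 0.21, with 286 introns higher and 1 lower. In the longest group (21456 to 604457 bases) the median was -0.21, with 39 higher and 91 lower. The called introns had a median length of 2320 bases where higher and 48550 where lower, against 3544 over all tested introns. Genes were also split into 5 groups by the summed length of their tested introns. Of the group with the shortest sums 6.67% had a higher intron and 0.0386% a lower one, against 2.20% and 2.89% of the group with the longest.

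**Figure D2:**
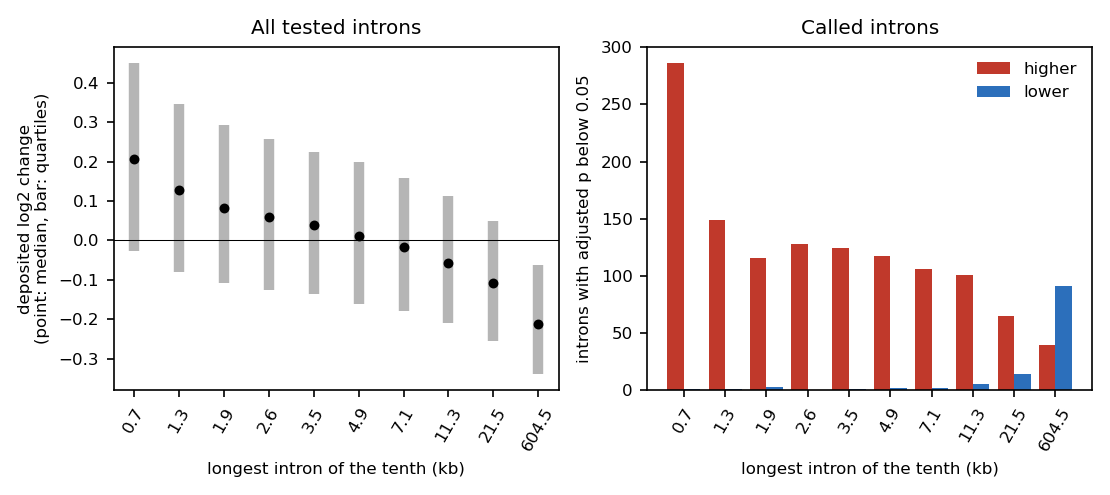
Tested introns in 10 groups of equal size by length, with the longest intron of each group in kb on the horizontal axis; left, the median and quartiles of the deposited log2 change; right, the number of introns called higher and lower. The median falls from 0.21 to -0.21 and 91 of the 120 lower introns lie in the longest group.

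The calls were repeated without the length trend. The median of each of 20 length bins was subtracted, an alternative chosen after the data were seen. New p-values were computed from the shifted change and the deposited SE (normal distribution) and adjusted. By these 995 introns were higher and 15 lower. These included 827 of the 1231 higher introns and 11 of the 120 lower ones. Expression moved with the calls as well. Genes with a higher intron had a median of 29.1 FPKM in the 24 h total RNA libraries, whose cells had also received homogenate. Those with a lower intron had a median of 3.12, and all tested genes 9.72. The part of length and of expression in the calls was not tested.

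Nuclear speckle genes had the highest share with a higher intron among the 39 lists. Of 15 tested scaffold and peripheral speckle genes, 10 had at least 1 higher intron (66.7%, against 4.97% of all tested genes) and none a lower one, and all 15 medians were positive. SON, a scaffold of the speckle, had 4 of 5 introns higher, at 0.88, 1.12, 1.20 and 1.36, and the other, of 1764 bases, at 0.69 (SE 0.21, adjusted p 0.0652 in the authors' deposited table). SRRM2, the other scaffold, had 1 of 8 higher with a median of 0.59, and SRRM1, a splicing coactivator, 2 of 13.

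The exon junction proteins RNPS1 (3 of 5, median 0.94) and PNN (3 of 5, 0.90) and the splicing factor RBM39 (4 of 19, 0.47) belonged to the same list. The median of the list was 0.48, and 0.37 with the length trend removed, against -0.01 and -0.02 over all tested genes. Its genes had a median of 70.1 FPKM at 24 h and a median intron length of 1379 bases. These genes were listed with results of these data known, so the count describes them and supports no claim of its own.

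Other splicing factors were called in part. SR proteins, which bind exonic enhancers, had 5 of 13 with a higher intron, among them TRA2B (2 of 8 introns, median 0.87), SRSF11 (3 of 12, 0.49), SRSF3 and SRSF10. Of the kinases that phosphorylate them, CLK1 (1 of 7) and CLK3 (2 of 14) were among 9 tested. A gene with more tested introns has more chances of a call. By introns 10.1% of 79 were called higher for SR proteins and 3.1% of 96 for these kinases, against 1.5% over all tested introns. In the U2 snRNP, which recognises the branch point, 5 of 17 had a higher intron, led by SF3B6, both of whose introns were higher (1.19 and 1.31), and U2AF2 (2 of 6, median 0.76).

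In the U1 snRNP and its associated proteins the count was 3 of 12, with SNRNP70 at 3 of 8 introns. None of 8 tested proteins of the minor spliceosome had a called intron in the authors' iREAD table, where 2 of 30 introns were higher and 0 lower at an unadjusted p below 0.05. Over all tested introns 7.67% were higher and 3.93% lower at an unadjusted p below 0.05, which is the background for each such count given here. The hnRNP family, which coats nascent RNA, had 8 of 22 with a higher intron. HNRNPDL (5 of 6 introns, median 0.99), HNRNPM (9 of 15, 0.77) and HNRNPC (5 of 12, 0.54) held most of them. Among RNA-binding proteins linked to disease, 5 of 16 had a higher intron, including EWSR1, G3BP2, MATR3 and SFPQ. Their called share by introns was 3.61% of 194, and that of the hnRNP family 13.7% of 190, against 1.5% over all tested introns.

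Of 18 tested genes of the exon junction complex and mRNA export, 5 had a higher intron: ALYREF, the helicase DDX39A (5 of 5 introns, median 1.10), the export receptor NXF1 (6 of 8, 1.05), EIF4A3 (3 of 5, 0.79) and ZC3H11A. In nonsense-mediated decay, UPF1 (4 of 18), SMG1 (1 of 30) and PNRC2 (1 of 1) were called among 12. By introns 3.14% of 191 were called higher in that list and 16.1% of 112 in the exon junction and export list. Over all tested introns the share was 1.5%. None of 14 genes of nuclear RNA decay was called (iREAD table; 21 of 138 introns higher and 0 lower at an unadjusted p below 0.05). Of 15 genes of cleavage and polyadenylation 1 was, PAPOLA. No test of the difference between lists was made.

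Cytosolic ribosomal protein genes held the most called genes and introns of the 39 lists. Of 67 tested, 29 had a higher intron (43.3%), with 57 of their 196 tested introns called and a list median of 0.49. RPL3 had 6 of 7 introns higher (median 1.08), RPL7A 3 of 5 (1.12), RPL13A 2 of 2 (1.03) and RPS3A 2 of 4 (0.92). Introns of these 4 genes carry small nucleolar RNAs (snoRNAs), whose reads cannot be separated from the intron here. Among translation factors 13 of 35 had a higher intron, including EIF1AX (3 of 8), EIF3D (4 of 13) and EIF4A2, whose only tested stretch was 23 bases long.

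Genes that host snoRNAs had 10 of 19 with a higher intron, and 42 of their 99 introns were called. NOP56, a partner of NOP58, had 5 of 5 higher (median 1.20), SNHG17 8 of 11 (0.77), RACK1 5 of 6 (0.82), GAS5 2 of 3 (0.93) and SNHG1 1 of 2, at 1.74 in an intron of 68 bases. EIF4A2 stands in both lists. None of 57 mitochondrial ribosomal protein genes had a higher intron (iREAD table; 14 of 207 introns higher and 1 lower at an unadjusted p below 0.05), and 1, MRPS22, had a lower one. None of 22 aminoacyl-tRNA synthetases was called (iREAD table; 4 of 262 introns higher and 2 lower at an unadjusted p below 0.05). Their median was 66.7 FPKM at 24 h, beside 67.1 for the translation factors and 265 for the cytosolic ribosomal proteins.

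**Figure D3:**
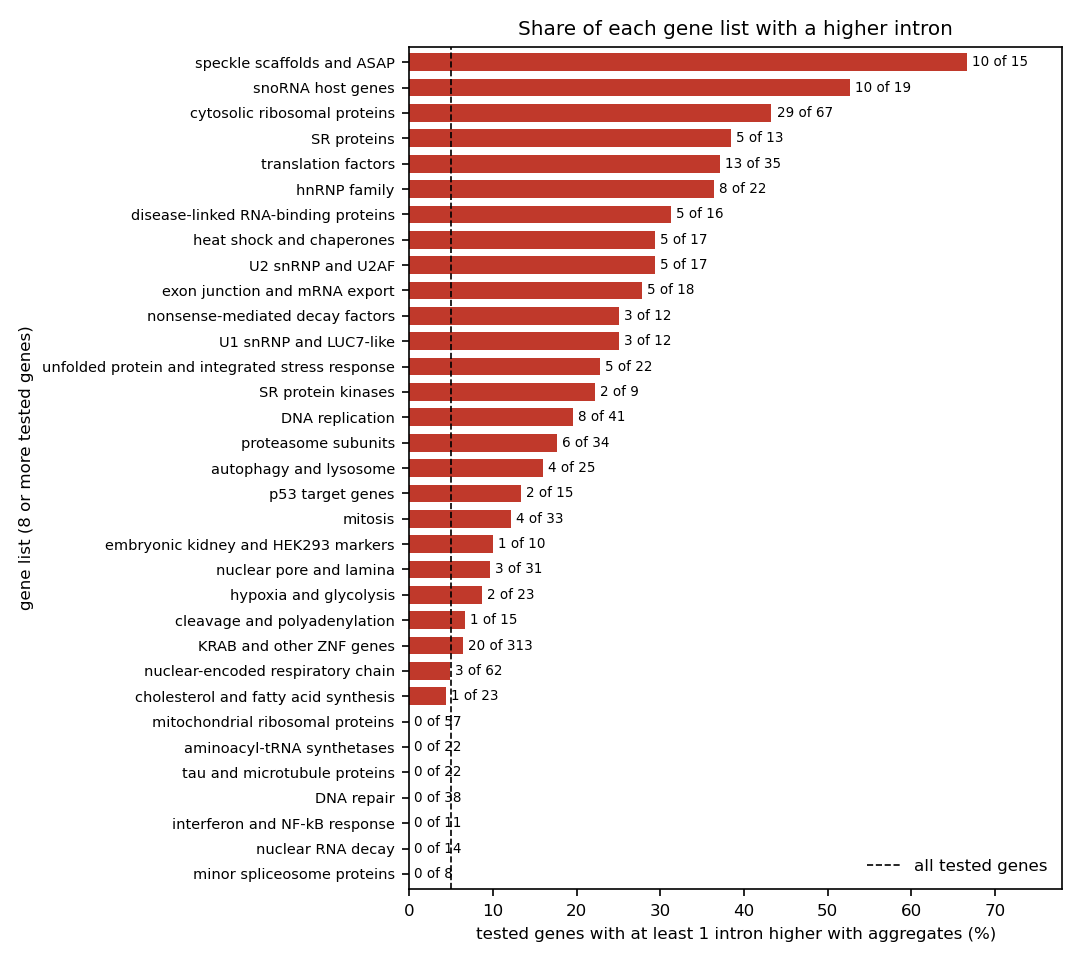
Bars give the percent of tested genes of each list with at least 1 intron higher with aggregates, labelled with the counts; the dashed line is the 4.97% of all 12966 tested genes. The speckle list reaches 66.7%, the snoRNA hosts 52.6%, and 7 of the lists shown stand at 0.

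Stress genes were called in part. In the unfolded protein and integrated stress response, 5 of 22 tested genes had a higher intron: ATF3, PPP1R15A, a phosphatase subunit that ends the response (1 of 1 at 2.35, SE 0.31), DDIT3 (1 of 2), SLC3A2 (4 of 11) and the kinase gene EIF2AK3 (1 of 8). Heat shock and chaperone genes had 5 of 17, each with 1 called intron: HSPA5, HSPA9, HSP90AA1, DNAJA1 and CHORDC1. By introns 7.64% of 144 were called higher in the first of these lists and 2.96% of 169 in the heat shock list. The share over all tested introns was 1.5%. Of p53 targets BBC3 and CDKN1A were called (2 of 15), and of interferon and NF-kB genes none of 11 (iREAD table; 3 of 42 introns higher and 0 lower at an unadjusted p below 0.05).

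Protein turnover was represented by SQSTM1, the autophagy receptor p62, with 7 of 13 introns higher and a median of 1.08. Its 4 first introns by position lay between 0.01 and 0.62 and did not pass, while the 9 that follow lay between 0.73 and 1.54. MAP1LC3B (1 of 3), LAMP1 (3 of 5) and ATG14 (1 of 7) made up the rest of 4 called among 25 autophagy and lysosome genes. Of 34 tested proteasome subunits 6 had a higher intron, among them PSMD1 (3 of 23) and PSMD14 (1 of 11).

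Of 41 tested DNA replication genes 8 had a higher intron, at a list median of 0.19. PCNA, the sliding clamp of replication, had 4 of 6 introns higher at 1.12 to 1.49, and its longest intron, of 4960 bases, stood at 0.18 (SE 0.31). GINS2 (2 of 4), CDT1 (3 of 9), CDC6, MCM4, MCM7, RFC3 and CDC45 were the others. Mitosis genes had 4 of 33, and none of 38 DNA repair genes was called (iREAD table; 20 of 525 introns higher and 16 lower at an unadjusted p below 0.05). Zinc finger genes, with 20 of 313 higher (6.39%) and 1 lower, stood near the 4.97% of all genes, as did the respiratory chain with 3 of 62 and cholesterol and fatty acid synthesis with 1 of 23. Nuclear pore and lamina genes had 3 of 31, and hypoxia and glycolysis genes 2 of 23. By introns the called shares were 0.617% of 486 for nuclear pore and lamina, 1.54% of 195 for hypoxia and glycolysis and 1.83% of 383 for mitosis. The respiratory chain had 2.99% of 234 introns called, a list median of 0.22 and 48 of 62 gene medians above 0. Over all tested introns 1.5% were called higher. Nuclear long non-coding RNAs had none of 5 (iREAD table, 1 of 46 introns higher and 6 lower at an unadjusted p below 0.05).

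None of 22 tested tau and microtubule genes had a called intron, at a list median of -0.01 (iREAD table; 13 of 270 introns higher and 11 lower at an unadjusted p below 0.05). MAPT, the tau gene, had 12 tested introns from -0.53 to 0.55 with a median of -0.22 and a smallest adjusted p of 0.144 in the authors' deposited table, with 1 higher and 3 lower at an unadjusted p below 0.05. The line also carries the repeat-domain construct, and whether any of these intron reads came from it was not tested.

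The line matched its label in part of its markers. In the 24 h total RNA libraries of the same line (2 libraries, cells given homogenate), VIM stood at 194 ± 5.11 FPKM (SD, n = 2). There 2 of 14 kidney and HEK293 markers were under 1 FPKM. Of 10 neuron markers 7 were under 1 FPKM, with GRIN2B at 0, of 6 oligodendrocyte markers 5, of 8 microglia and blood markers 7, with AIF1, P2RY12 and HBB at 0, and of 5 endothelial markers 4, with CLDN5 at 0. Of 6 astrocyte markers 3 were under 1 FPKM, and SLC1A3 and GJA1 were above 10. At 96 h none of the 13 tested genes of the non-kidney lists had a called intron (iREAD table; 0 of 39 introns higher and 2 lower at an unadjusted p below 0.05), and VIM was the 1 called kidney and HEK293 marker (2 of 3 introns).

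The splicing table also held values for introns of the intron table. The direction of the log2 changes had been read from this splicing table, so a shared direction between the tables is in part set by that reading and is no independent support. It held PSI values for 23653 introns of the intron table, 22866 of them tested there. Of 462 introns called higher, 429 (92.9%) also had a higher retained PSI with aggregates, from a median of 0.151 in mock to 0.191, with a median difference of 0.0325. Over all 22866 the share was 54.1% and the median difference 0.002. All 4 introns called lower had a lower PSI. None of the called introns was called in the MAJIQ splicing table, and 1 had a probability of at least 0.5 there. Both tables come from the same 6 libraries.

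**Figure D4:**
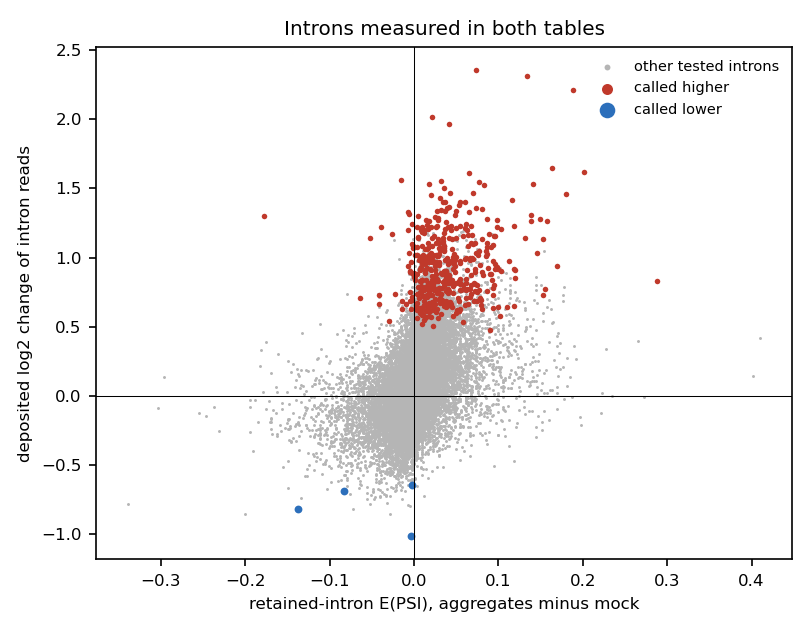
Each point is 1 intron tested in the intron table and also measured as a retained intron in the splicing table; the horizontal axis is the difference in expected PSI and the vertical axis the deposited log2 change. Of 462 introns called higher 429 lie right of 0, and all 4 called lower lie left of 0; the direction of the vertical axis was itself read from the splicing table.

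The same values were summed up per gene, with the same limit on what a shared direction shows. Among 598 genes with a higher intron and at least 1 retained intron in the splicing table, 556 (93.0%) had a higher mean retained PSI with aggregates, against 50.1% of all 9678 such genes. Of 50 genes with a lower intron 14 did (28%). NOP58 went from a PSI of 0.301 to 0.355 as a mean over 19 retained introns, each of them higher, HNRNPM from 0.244 to 0.291 (18 of 18 higher) and HBS1L from 0.259 to 0.306 (21 of 21). BRD2 went from 0.381 to 0.422, RSRC2 from 0.564 to 0.613 and ATF3 from 0.436 to 0.560.

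Some genes with a higher intron showed little or no such shift. EEF2 had a mean retained PSI of 0.196 in mock and 0.189 with aggregates, with 8 of 16 introns higher. SQSTM1 went from 0.303 to 0.310 (6 of 11). RPL13A, with 2 tested introns, went from 0.182 to 0.181 (4 of 7) and SRRM2 stood at 0.473 in both groups (8 of 16). These are means over introns of expected values and carry no error in the table.

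Few junctions were called in the splicing table. A junction was called where the authors' deposited probability of a PSI difference of at least 0.2 was at least 0.95 and the expected difference at least 0.1. That held for 208 of 308694 junctions (0.0674%), in 124 splicing variations of 83 genes (0.614% of 13524). A variation is a set of junctions that share 1 exon end. Of the called junctions 74 were retained introns, 60 of them up and 14 down with aggregates, and 134 were spliced junctions, 50 up and 84 down.

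A large part lay in 2 genes of clone names on chromosome 21, FP236383.1 with 42 called junctions and FP671120.2 with 9. They lie in a region of repeated ribosomal RNA genes whose near-identical copies share reads, so their values are uncertain. Without them 157 junctions of 81 genes remained, 59 of them retained introns (47 up, 12 down) and 98 spliced (32 up, 66 down). Of the 47 retained introns up, 29 were below 0.05 PSI in mock. The median over all 47 was 0.012 in mock and 0.615 with aggregates. Of the 12 down, 9 were below 0.05 with aggregates.

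**Figure D5:**
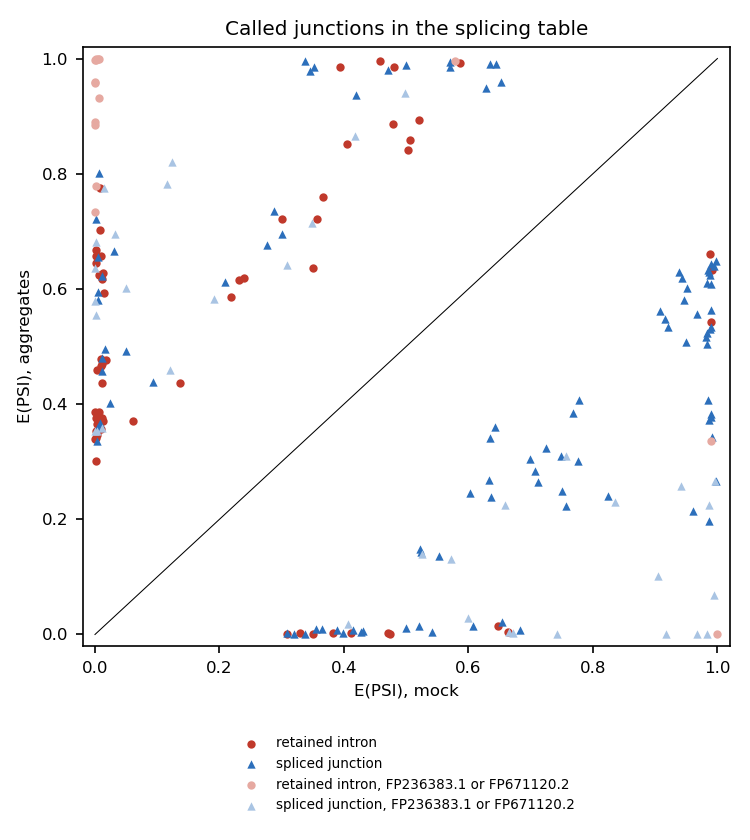
Each of the 208 called junctions is placed by its expected PSI in mock (horizontal) and with aggregates (vertical), by kind, with the 51 junctions of FP236383.1 and FP671120.2 in pale colours. Many points lie along the edges: 64 were below 0.05 PSI in mock and 34 below 0.05 with aggregates.

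Genes with a called retained intron were looked up in the intron table. Of the 42 genes with such an intron up outside the 2 clone genes, 34 had a tested intron, 3 had a higher one (8.82%, against 4.97% of all tested genes), and the median of their median changes was 0.06. NIT1, a nitrilase-family gene, went from 0.008 to 0.775 PSI for an intron of 1802 bases, while its only tested intron stood at -0.33 in the intron table. EMC3, a subunit of a membrane insertion complex, went from 0.008 to 0.703 for an intron of 1065 bases, and its 5 tested introns had a median of 0.50 with a smallest adjusted p of 0.0504 in the authors' deposited table. BRF1, a subunit of RNA polymerase III initiation, went from 0.002 to 0.667 over 23593 bases, with a median of -0.01 over 11 tested introns.

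Spliced junctions were called in genes of varied function. TYMS, thymidylate synthase, fell from 0.683 to 0.007 for a gap of 117 bases, and NPM1, nucleophosmin, from 0.430 to 0.006 for a gap of 49 bases. Gaps under 60 bases made up 17 of the 134 called spliced junctions (12.7%), against 0.414% of all spliced junctions, in 11 genes. Whether such short gaps are introns was not tested.

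Of 22 tau and microtubule genes in the splicing table, 2 had a called junction, MAPT and MARK2, against 0.614% of all 13524 genes. A gene with more variations has more chances of a call: called genes had a median of 15 variations, all genes 6. The other lists with a called junction had 1 gene each, of 22 in the hnRNP family, 22 in the stress response, 42 in DNA replication and 281 zinc finger genes. In MAPT a junction from 45987095 to 45991460 on chromosome 17 (GRCh38) fell from 0.95 to 0.508, and the junction from 45990075 to the same end rose from 0.05 to 0.492, with a deposited probability of 0.992. The other 32 junction values of MAPT in the table were not called. MARK2, a kinase that phosphorylates tau, changed between gaps of 30 and 60 bases (0.984 to 0.504 for the shorter), and MARK4, of the same family but not of the list, had a retained intron up from 0.367 to 0.759. Whether any of these MAPT junction reads came from the homogenate or the construct and not from the chromosomal gene was not tested.

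Some genes were called in both tables. Of 10461 genes measured in both, 664 were called in the intron table and 69 in the splicing table, and 6 in both, which is 0.904% of the first and 8.70% of the second. Over all 10461 genes 0.660% were called in the splicing table and 6.35% in the intron table. ATF3 had 4 called junction values. Its intron from 212618234 to 212619358 went from 0.350 to 0.637 PSI as a retained intron, while the spliced junction over the same gap fell from 0.642 to 0.361 and, in a second variation, from 0.777 to 0.407. The others were DNAH17, an axonemal dynein gene (4 of 11 introns higher), UBE3C (3 of 26), NPM1 (2 of 9), HNRNPA2B1 (1 of 8, with a retained intron up from 0.503 to 0.842) and NUTM2B-AS1, whose 1 called intron was lower.

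In some genes a single intron stood apart. Among genes with at least 4 tested introns, 156 had 1 higher intron that was also their largest change, and in 154 of them the median of the other introns was positive. In 6 the called intron exceeded that median by at least 1 on the log2 scale. TOP1, DNA topoisomerase I, had an intron of 330 bases at 1.61 (SE 0.36) with a median of 0.47 over the others, and PMPCA, a mitochondrial peptidase subunit, an intron of 591 bases at 1.53 (SE 0.36) with 0.23. PDE7B, a phosphodiesterase, stood at 1.38 (SE 0.27) with 0.14, and LINC01033, a long non-coding RNA gene, at 1.46 (SE 0.27) with -0.02. These genes were chosen after their values were seen.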

How the data were processed

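HEK293 libraries at 96 h (3 with aggregates, 3 mock) were compared through the authors' deposited tables. STAR 2.6.0c and the builds hg38 and GRCh38 are named in the submitters' processing notes. For iREAD and MAJIQ no version or setting was given in the sources used here, nor was the annotation. Per the file headers the iREAD table holds, per intron, a mean normalized count (signal), a log2 change, its SE, a p-value and an adjusted p, as the authors deposited them. The MAJIQ table deposited by the authors holds other values, expected PSI per group, an expected PSI difference, and its probability of being at least 0.2. A further probability column holds values that do not match its name and was not used. The 24 h files hold FPKM deposited by the authors, averaged here over 2 total RNA libraries of cells given 200 ug of homogenate.

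The call of an intron is a deposited adjusted p below 0.05. P-values were adjusted again or combined per gene (Simes) only for the alternatives of the closing section and for the length trend. For the length trend they were first computed anew from the shifted change and the deposited SE. The 90008 introns without an adjusted p (lowest tested mean count 35.2) were left out. Per-gene medians over tested introns are printed. The expected difference of MAJIQ need not equal the gap between the group values, and can be smaller or larger than it. Table intron starts count from 0 and are printed from 1, and MAJIQ ends are exon bases. Members and all 39 gene lists were chosen with earlier results of these data known.

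The genes named were those with the most called introns (10 in each direction), the largest medians (10 in each direction), the largest called PSI differences (12), calls in both tables (up to 10, of which there were 6), up to 4 called members a list, and MAPT; counts over lists also name other called members, and the single-intron genes were added after their values were seen. Adjustment was tested on simulated data. Python 3.11.15, pandas 2.3.3 and numpy 2.4.6 were used. A few genes are not reported here. P-values measure the spread between these dishes of 1 line.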

Additional observations from a re-analysis of the deposited data

How the results depend on the processing

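No paired analysis was possible because the deposited tables for the 96 h cells hold group summaries and no values per sample, and for the same reason no library of these could be left out. With an adjusted p below 0.01 there were 556 introns higher and 15 lower, in 313 and 11 genes, and 3 genes were called in both tables. Below 0.1 there were 291 introns lower, in 194 genes. With only introns of a mean count of at least 10 adjusted again, 70 introns in 47 genes were lower. With a change of at least 1 on the log2 scale, 475 introns in 287 genes were higher and 7 in 7 genes lower, and 2 genes were called in both tables. With the length trend removed, chosen after the data were seen, 15 introns in 15 genes were lower. A Simes combination per gene left 43 genes lower, and at least 2 called introns left 265 genes higher and 21 lower. In the splicing table a probability of at least 0.99 left 51 genes, 3 of them called in both tables. A probability of at least 0.5 gave 691 junctions in 333 genes, 17 called in both tables, and 9 lists above the share of all genes. An expected difference of at least 0.2 alone gave 689 junctions, 332 genes, 18 in both and 10 lists, against 4 lists as reported. Gene medians were also taken over introns of a mean count of at least 10, in genes with at least 3 of them, a wider set than the tested introns behind the printed medians. By these MRPS22 stood at -0.21, and at 0.14 over its tested introns. Against these, 3 of 462 medians of named genes changed sign under alternatives: MRPS22 at 0.071 with a count of at least 50 and 0.014 with the length trend removed, and NUTM2B-AS1 at -0.13 as a weighted mean. By the same medians 50.8% of genes were above 0, and 46.1% with the length trend removed; over tested introns 6311 of 12966 were above 0. The 24 h level of genes with a higher intron, a median log2(FPKM + 1) of 4.91, was 4.86 with a pseudocount of 0.1 and 4.90 to 4.91 without 1 of the 2 libraries. Without a known depth at 96 h, an intron that was not called may lie below what could be detected.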
